A study of Mus musculus with 4 samples.

Results

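The histone genes of mature dendritic cells were read from the mRNA of maDC, bone marrow-derived dendritic cells (BMDC) that had been matured with lipopolysaccharide (LPS), in Mettl3KO and Mettl3WT mice. Mettl3 is the catalytic subunit of the complex that places m6A, a methyl mark, on mRNA. Every gene whose symbol starts with Hist1h, Hist2h, Hist3h or Hist4h was taken, together with H2afx, H2afy, H2afz, H3f3a and H3f3b. This gave 40 genes of the 23690 listed in the table of the first littermate pair, made up of 35 replication histones and 5 replacement histones. Of these, 14 were also among the 11835 genes listed for the second pair (9 replication and 5 replacement histones), and the other 26, all replication histones, were listed for the first pair alone.

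The 4 libraries came from 2 littermate pairs, each with 1 Mettl3KO and 1 Mettl3WT sample. The Mettl3KO cells came from Mettl3fl/flCD11c-Cre mice, in which Cre driven by the promoter of CD11c removes exons 2 to 4 of Mettl3 (labelled Mettl3-/-), and the Mettl3WT cells came from Mettl3fl/fl littermates. All mice were of the C57BL/6 strain and 6 weeks old. For both genotypes, marrow cells were cultured in GM-CSF (10 ng/ml) plus IL-4 (1 ng/ml), CD11c-positive cells were pulled out with magnetic beads, and these received LPS (100 ng/ml) for 24 h. The values are RPKM, a read density that allows for gene length and library depth, and the genotypes were compared within each pair because each pair has its own table. The fits that leave out 1 library are the exception and are named as such.

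Histones are the proteins around which DNA is wound, 4 core types (H2A, H2B, H3 and H4) and the linker H1. Replication histone genes lie in clusters, mostly lack introns and are used while DNA is copied. Their mRNAs normally end at a short stem-loop in place of a poly(A) tail, which is bound by the protein Slbp. Replacement histones are made throughout the cell cycle from ordinary polyadenylated mRNAs, and they are what a cell that has stopped dividing, as a maturing dendritic cell largely has, puts into its chromatin. The RNA here was selected by its poly(A) tail, so the amount of a replication histone mRNA that ends at its stem-loop is not what these values measure.

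The 3′ stem-loop was looked up because it is the usual end of a replication histone mRNA without a tail. A stem of 6 paired bases that starts with GG around a loop of 4 bases was present in a GENCODE M21 transcript (mouse, GRCm38, the same assembly as mm10) of 27 of 35 replication and 1 of 5 replacement histones, against 0.484% of 21901 protein-coding genes. The 8 genes of both tables that held one are shown 5′ to 3′ as DNA letters, with the paired bases in capitals. The positions are those of the 16 bases of stem and loop.
Hist1h4h: accaaaGGCCCTtttcAGGGCCgcccac (chr13:23531458-23531473, plus strand)
Hist1h4i: cttaaaGGCCCTttttAGGGCCaccaca (chr13:22040966-22040981, minus strand)
Hist3h2ba: cccaaaGGCTCTtttcAGAGCCaccttc (chr11:58949349-58949364, plus strand)
Hist1h2bg: cccaaaGGCTCTtttcAGAGCCacccat (chr13:23571843-23571858, plus strand)
Hist3h2a: accaaaGGCTCTtttcAGAGCCacccac (chr11:58955172-58955187, plus strand)
Hist1h2ao: aaaaaaGGCTCTtttcAGAGCCatccac (chr13:21810898-21810913, plus strand)
Hist1h1c: ccaaaaGGCTCTtttcAGAGCCaccact (chr13:23739512-23739527, plus strand)
H2afx: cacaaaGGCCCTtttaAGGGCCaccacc (chr9:44335240-44335255, plus strand)
Across the 28 genes with a stem-loop, the first arm set the H4 genes apart from the other replication histones. All 16 stem-loops of the H1, H2A and H2B replication genes and of Hist1h3d, Hist2h3c1 and Hist2h3c2 were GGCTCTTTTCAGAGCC, while the 9 H4 genes had GGCCCT or GGTCCT as the first arm. Hist1h4h, Hist1h4c, Hist1h4d and Hist1h4m shared 1 sequence, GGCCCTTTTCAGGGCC. H2afx, the variant that is phosphorylated at DNA breaks, was the replacement histone with a stem-loop, and its arms were those of an H4 gene around a different loop. No stem-loop of this form was in the transcripts of Hist1h2bc or Hist2h2be. The GENCODE transcripts of Hist1h1b, Hist1h2af, Hist1h2ai, Hist1h3i and Hist1h4k were shorter than the listed genes. In Hist1h4k, for example, the longest had 312 bases where the listed gene spans 409. A stem-loop or poly(A) signal past such an end could not be found, so these genes may hold one that was not counted.

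The deposited tables end most of these genes just after the stem-loop, whereas GENCODE has transcripts that run on past it. In the 26 genes other than H2afx and Hist1h2be, the listed gene ended 4 to 8 bases after the stem-loop. The first GENCODE transcript found with the stem-loop reached 840 bases past it in Hist1h1c, 1643 in Hist3h2a, 330 in Hist1h4i, 169 in Hist3h2ba and 46 in Hist1h4h. H2afx was listed with an end 822 bases past its stem-loop, which is also where its GENCODE transcript ends. A poly(A) signal (AATAAA or ATTAAA) was in the last 50 bases of a transcript of 12 of the 35 replication and 4 of the 5 replacement histones, against 77.9% of protein-coding genes. Hist1h1c, Hist1h4h, Hist1h4i, Hist3h2a and Hist3h2ba were among the 11 replication histones with both features. Reads that fall beyond a listed end would not have been counted for that gene.

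**Figure D1:**
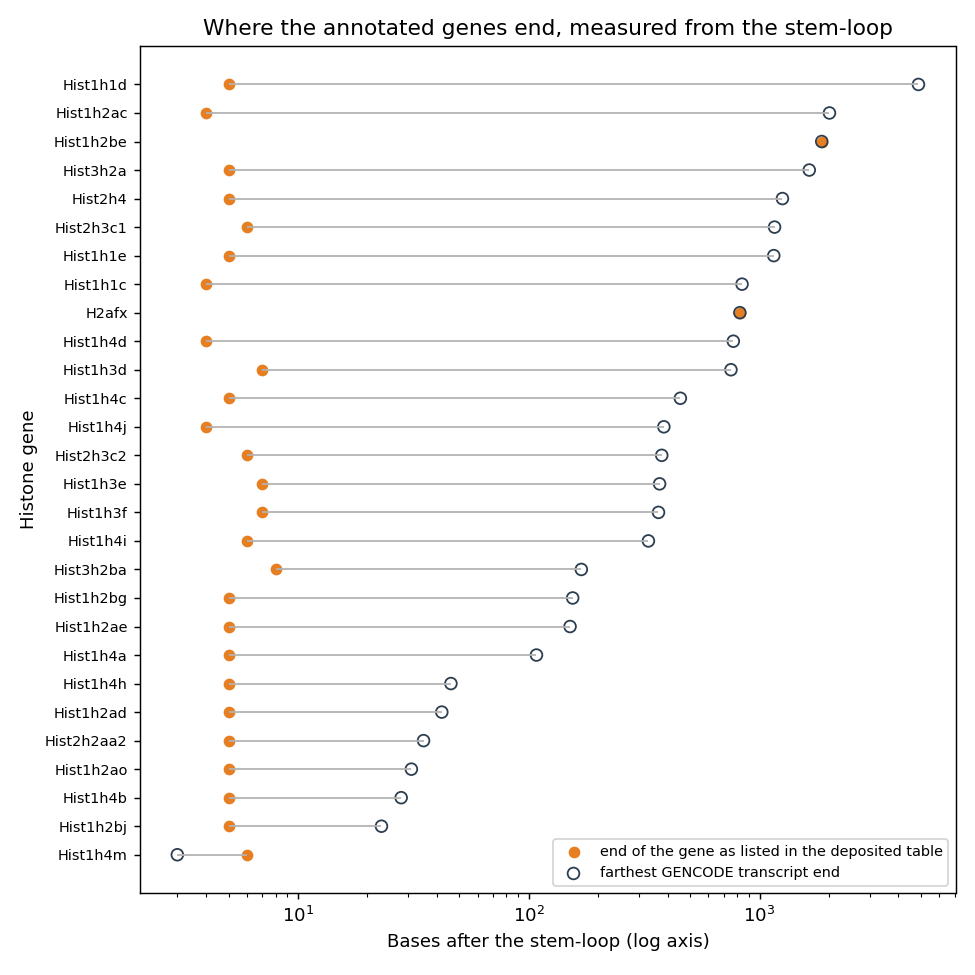
Distance in bases (log axis) from the end of the stem-loop to the end of each gene as listed in the deposited tables (orange) and to a GENCODE transcript end (open circles). The 28 histone genes with a stem-loop are shown. The GENCODE end is that of the first transcript found with the stem-loop, which need not be the farthest end that the key names. For 26 genes the listed end lies 4 to 8 bases past the stem-loop, and in H2afx and Hist1h2be the listed and GENCODE ends coincide at 822 and 1861 bases.

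The libraries held between 31240000 and 35570000 reads, as recovered from the spacing of the low RPKM values. Mettl3, the deleted gene, was at 4.59 and 4.39 RPKM in the Mettl3KO libraries, against 5.31 and 5.10 RPKM in the Mettl3WT libraries of pairs 1 and 2. This was 86.5% and 86.1% of the Mettl3WT level and not past the test (adjusted p = 0.994). The RPKM of a whole gene also counts exons outside the deletion. All 15 dendritic cell markers were present in all libraries, and 12 of them were lower in Mettl3KO in both pairs (30.8% of all genes were), though none passed the test. Of 12 macrophage and monocyte markers tested, 5 were higher (19.1% of all genes were) and 2 lower in both pairs. Among them, Fcgr1 was at 57.1 and 33.5 RPKM in Mettl3KO, against 19.2 and 20.7 RPKM in Mettl3WT, and Ccr2 at 3.93 and 9.90 RPKM in Mettl3KO, against 1.57 and 5.45 RPKM in Mettl3WT, neither past the test. In pair 1, Xist was at 37.8 RPKM in Mettl3KO and 0.0502 RPKM in Mettl3WT. Ddx3y, a Y-linked gene, was at 0.0243 RPKM in Mettl3KO and 29.1 RPKM in Mettl3WT there. The genotype and the sex of the mice therefore cannot be told apart in pair 1. Pair 2 has values only for genes above 1 RPKM in both of its libraries, and none of the 5 sex-linked transcripts looked up could be compared there. Whether the mice of pair 2 also differed in sex was not tested. Of 5 granulocyte and precursor markers tested, 4 were higher in Mettl3KO in pair 1 and 1, Lcn2, in pair 2, and the 5 summed to 7029 RPKM in Mettl3KO and 4146 RPKM in Mettl3WT in pair 1, and to 3664 RPKM in Mettl3KO and 5739 RPKM in Mettl3WT in pair 2. In pair 2 they ran from S100a9, at 2.57 RPKM in Mettl3KO and 1844 RPKM in Mettl3WT, to Lcn2, at 3510 RPKM in Mettl3KO and 2687 RPKM in Mettl3WT. The part of sex, of monocytes, of granulocytes or of the number of cells in the values below was not tested, and fewer cells of a type and less RNA per cell cannot be told apart in such bulk samples.

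In this poly(A)-selected RNA the replacement genes H3f3a, H3f3b and H2afz had the highest levels of the 40 histone genes in every library. The replacement genes H2afx and H2afy lay below the replication genes Hist1h1c and Hist1h2bc in each library. All 5 replacement genes together summed to 940 RPKM in Mettl3KO and 899 RPKM in Mettl3WT in pair 1. In pair 2 they summed to 1236 RPKM in Mettl3KO and 1198 RPKM in Mettl3WT. The 9 replication histones listed for both pairs summed to 119 RPKM in Mettl3KO and 109 RPKM in Mettl3WT in pair 1, and to 183 RPKM in Mettl3KO and 176 RPKM in Mettl3WT in pair 2. Both sums were slightly higher in Mettl3KO in each pair, as was the sum of all RPKM in the table, by 2.63% in pair 1 and 11.6% in pair 2. The replication sum of pair 2 was higher through Hist1h2bc, and the other 8 genes summed to 86.1 RPKM in Mettl3KO and 131 RPKM in Mettl3WT there, and to 87.1 RPKM in Mettl3KO and 79.0 RPKM in Mettl3WT in pair 1.

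**Figure D2:**
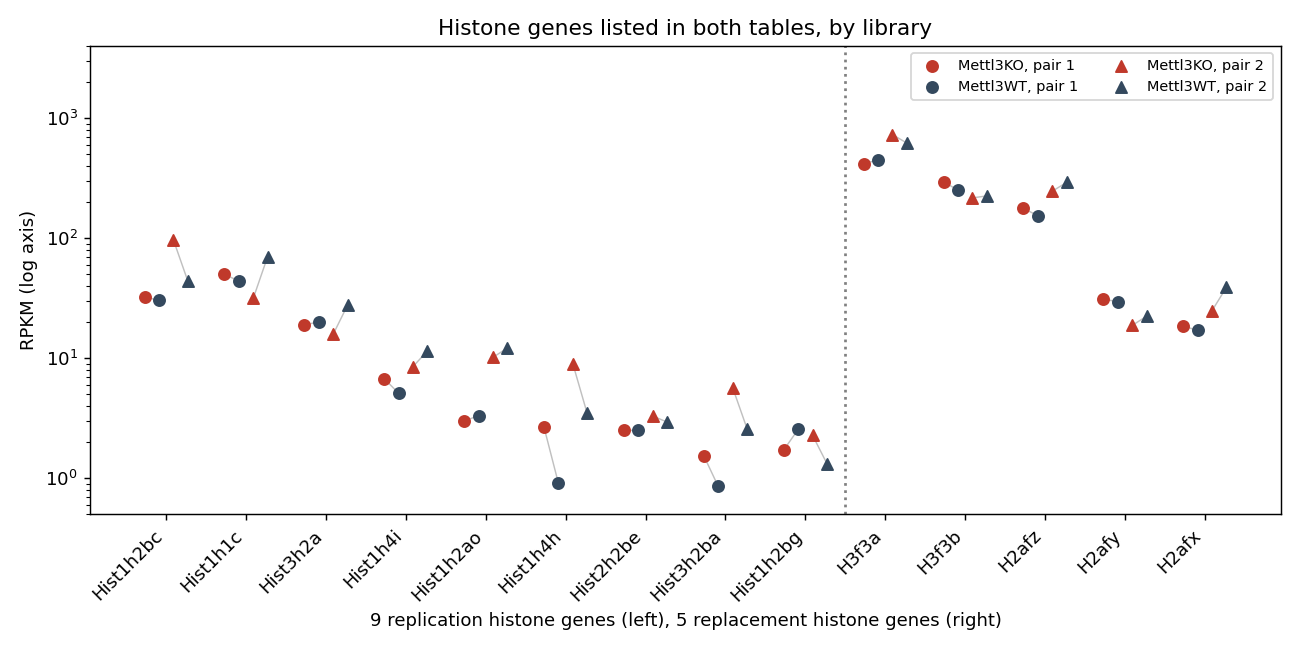
RPKM (log axis) of the 14 histone genes listed in both tables in each library, Mettl3KO in red and Mettl3WT in dark blue, circles for pair 1 and triangles for pair 2, with a line joining the libraries of a pair. Hist1h4h and Hist3h2ba are higher in Mettl3KO in both pairs, and Hist1h2bc and Hist1h1c differ mainly in pair 2 and in opposite directions.

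No histone gene differed between the genotypes past the test. In limma with the pair as a block, 5 of 11757 genes (0.0425%) had an adjusted p under 0.05, and they were Atp6v0c-ps2, Gm32719, Cxcl5, Ppbp and Ptgs2. None of the 14 histone genes was among them. At an unadjusted p under 0.05 there were 2 of the 14, Hist1h4h and Hist3h2ba, beside 654 of all genes (5.56%). A ratio of at least 1.5 in (RPKM + 1) in the same direction in both pairs was reached by 1 histone gene, Hist1h4h, which was higher in Mettl3KO. Of all genes 0.731% were 1.5-fold higher and 0.476% 1.5-fold lower in both pairs.

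Hist1h4h, one of the many genes for the core histone H4 (chr13:23531044-23531478 of mm10, plus strand, 1 exon), had the largest difference among the 14. It was at 2.64 and 8.98 RPKM in the Mettl3KO libraries of pairs 1 and 2, against 0.904 and 3.45 RPKM in the Mettl3WT libraries. The gene was higher in Mettl3KO within each pair, but the Mettl3WT level of pair 2 lay above the Mettl3KO level of pair 1, so the genotypes overlapped across the pairs, whose tables were normalised separately. Its values rested on 39 reads in Mettl3KO and 14 in Mettl3WT in pair 1, and on 122 reads in Mettl3KO and 49 in Mettl3WT in pair 2. The ratio was 2.92 in pair 1 (95% exact interval of the counts 1.55 to 5.83) and 2.60 in pair 2 (1.85 to 3.70), where the intervals cover counting error only. The log2 difference was 1.05 ± 0.20 (SE, n = 2 pairs, adjusted p = 0.182 in limma). This SE, like those below, is that of limma, which draws the variance of each gene towards the trend over all genes. It is therefore not the spread of the 2 pairs alone, which can be wider or narrower. With 1 library left out there is no pair block, and the remaining libraries are compared across the separately normalised tables, so such a value also holds the difference in level between tables. Without the Mettl3KO library of pair 1 this gave 1.78 (adjusted p = 0.0235 in limma), above the log2 ratios within pair 1 (0.94) and pair 2 (1.16). Leaving out the Mettl3KO library of pair 2 gave 0.32, the Mettl3WT library of pair 1 0.44 and the Mettl3WT library of pair 2 1.66, none of them past the test. Of the 50-base windows in its transcripts, 50.8% also occur in other genes, Hist1h4a, Hist1h4b, Hist1h4j and Hist1h4k among them, so that reads of such copies could be assigned either way.

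The other H4 gene of both tables did not share this pattern. Hist1h4i was at 6.73 and 8.498 RPKM in Mettl3KO, against 5.09 and 11.5 RPKM in Mettl3WT, higher in Mettl3KO in pair 1 and lower in pair 2. Its log2 difference was -0.03 ± 0.24 (SE, n = 2 pairs, adjusted p = 0.996 in limma).

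Among the 4 H2B genes, 3 were higher in Mettl3KO in both pairs, Hist2h2be by almost nothing in pair 1, and Hist1h2bg was not. Hist3h2ba is an H2B gene on chromosome 11, near Hist3h2a and the H2B pseudogene Hist3h2bb-ps. Of the 50-base windows of Hist3h2ba, 30.9% also occur in Hist3h2bb-ps. Hist3h2ba was at 1.53 and 5.68 RPKM in Mettl3KO, against 0.852 and 2.59 RPKM in Mettl3WT. It was higher in Mettl3KO within each pair, on 24 reads in Mettl3KO and 14 in Mettl3WT in pair 1 and on 82 reads in Mettl3KO and 39 in Mettl3WT in pair 2, and the interval of the ratio took in 1 in pair 1 (0.894 to 3.76) but not in pair 2 (1.48 to 3.30). The log2 difference was 0.67 ± 0.21 (SE, n = 2 pairs, adjusted p = 0.520 in limma).

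Hist1h2bc was the most abundant replication histone in the Mettl3KO library of pair 2, at 97.1 RPKM in Mettl3KO and 44.2 RPKM in Mettl3WT. In pair 1 it was at 32.3 RPKM in Mettl3KO and 30.3 RPKM in Mettl3WT, so nearly all of its difference came from 1 pair (log2 difference 0.61 ± 0.28, SE, n = 2 pairs, adjusted p = 0.906 in limma). This gene has a second exon in GENCODE, spans 8282 bases in the tables and held neither the stem-loop nor a poly(A) signal in the stretch searched. Hist2h2be, an H2B gene with no stem-loop but with a poly(A) signal, was at 2.50 and 3.29 RPKM in Mettl3KO, against 2.50 and 2.93 RPKM in Mettl3WT. None of its 50-base windows occurs in another gene, and its ratios of 1.00 in pair 1 (0.830 to 1.21) and 1.12 in pair 2 (0.942 to 1.34) held 1 within the interval. Hist1h2bg was at 1.72 and 2.28 RPKM in Mettl3KO, against 2.54 and 1.32 RPKM in Mettl3WT, with opposite signs in the pairs.

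Both H2A replication genes of the shared list were lower in Mettl3KO in both pairs. Hist3h2a was at 18.9 and 15.8 RPKM in Mettl3KO, against 20.0 and 27.6 RPKM in Mettl3WT. The counting interval of the ratio held 1 in pair 1 (0.945, interval 0.811 to 1.10) and lay below 1 in pair 2 (0.571, interval 0.487 to 0.668). The log2 difference was -0.42 ± 0.24 (SE, n = 2 pairs, adjusted p = 0.994 in limma). Of its 508 listed bases, 491 overlap Trim17 on the same strand, and all of its 50-base windows occur in other genes, so its reads and those of Trim17 could not be separated by position. Trim17 itself was listed at 4.22 and 4.16 RPKM in Mettl3KO, against 4.11 and 5.91 RPKM in Mettl3WT. Hist1h2ao was at 2.99 and 10.1 RPKM in Mettl3KO, against 3.31 and 12.1 RPKM in Mettl3WT, and 99.5% of its windows are shared with copies such as Hist1h2ap.

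Hist1h1c, which encodes a linker histone H1 and was the only H1 gene listed for both pairs, had the largest difference of a histone gene towards lower levels in pair 2. It was at 31.4 RPKM in Mettl3KO and 70.0 RPKM in Mettl3WT in pair 2, on 712 reads in Mettl3KO and 1655 in Mettl3WT. The ratio there was 0.449 (0.411 to 0.491). In pair 1 it was at 50.03 RPKM in Mettl3KO and 43.8 RPKM in Mettl3WT (ratio 1.14, 1.05 to 1.24), so the direction was not the same. The log2 difference over both pairs was -0.47 ± 0.31 (SE, n = 2 pairs, adjusted p = 0.994 in limma).

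In pair 2 alone the histone genes were thus spread to both sides. Hist1h2bc, Hist1h4h and Hist3h2ba were 1.5-fold higher in Mettl3KO there, 3 of 14, where 6.44% of all genes were, and Hist1h1c, Hist3h2a and H2afx were 1.5-fold lower, 3 of 14, where 10.8% of all genes were. On this scale of (RPKM + 1), only Hist1h4h was 1.5-fold higher in pair 1 (3.22% of all genes that averaged 1 RPKM or more in that pair) and no histone gene was 1.5-fold lower (2.37%). Hist3h2ba had a plain RPKM ratio of 1.80 in pair 1, and with 0.1 in place of 1 added the count was 2. Higher in Mettl3KO in both pairs by any amount were 4 of 9 replication histones (Hist1h2bc, Hist1h4h, Hist2h2be and Hist3h2ba) and 0 of 5 replacement histones, where 19.1% of all genes were. Lower in both pairs were 2 of 9 replication histones (Hist1h2ao and Hist3h2a) and 0 of 5 replacement histones, where 30.8% of all genes were. With 14 genes and 2 pairs these counts are a description.

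**Figure D3:**
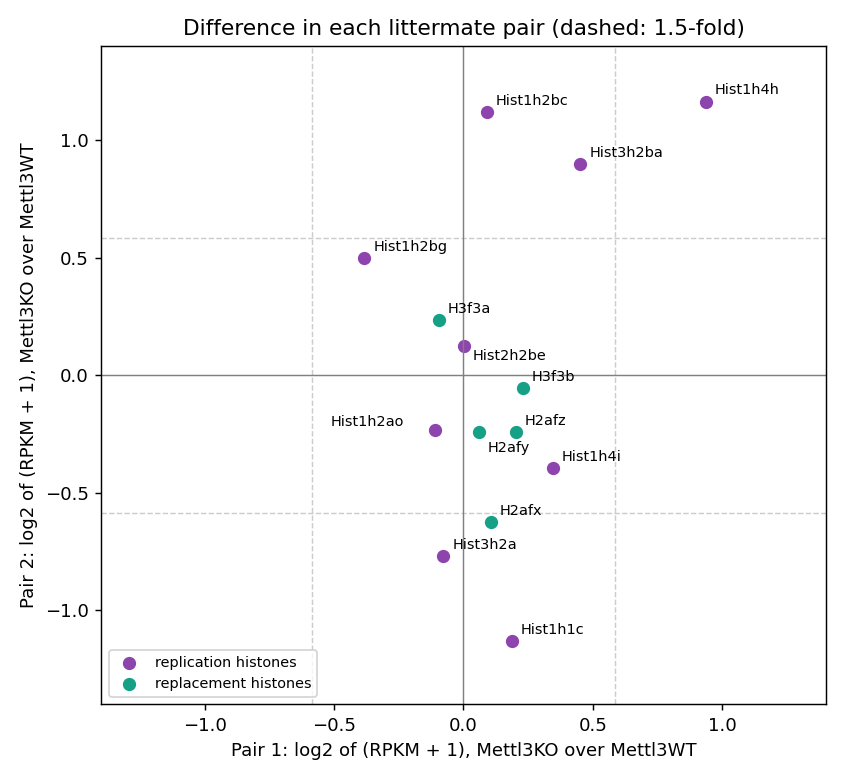
Log2 ratio of (RPKM + 1), Mettl3KO over Mettl3WT, in pair 1 (horizontal axis) against pair 2 (vertical axis), 1 point a gene for the 14 histone genes of both tables, purple for replication and green for replacement histones, with dashed lines at 1.5-fold. Hist1h4h is the only gene beyond 1.5-fold in the same direction in both pairs, and the 5 replacement histones stay within 1.5-fold except H2afx in pair 2.

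Each replacement histone was higher in Mettl3KO in one of the pairs and lower in the other. H3f3a and H3f3b encode the same protein, the replacement histone H3.3, and were the most abundant histone mRNAs in every library but for the pair 2 libraries, in which H2afz exceeded H3f3b. H3f3a was at 419 and 730 RPKM in Mettl3KO, against 447 and 621 RPKM in Mettl3WT. H3f3b was at 295 and 216 RPKM in Mettl3KO, against 251 and 225 RPKM in Mettl3WT. The log2 differences were 0.07 ± 0.24 and 0.09 ± 0.24 (SE, n = 2 pairs, adjusted p = 0.996 in limma for each). H3f3a was lower in Mettl3KO in pair 1 and higher in pair 2, and H3f3b the reverse. The H3.3 sum was 714 RPKM in Mettl3KO and 699 RPKM in Mettl3WT in pair 1, and 946 RPKM in Mettl3KO and 846 RPKM in Mettl3WT in pair 2. An unnamed gene overlaps 6916 bases of H3f3a on the opposite strand and was listed at 178 and 311 RPKM in Mettl3KO, against 192 and 260 RPKM in Mettl3WT. Whether the counting used strand is not given in the sources used here, so the reads of the overlapping genes cannot be told apart.

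The 3 replacement genes of the H2A type were each higher in Mettl3KO in pair 1 and lower in pair 2. H2afz, which encodes the variant H2A.Z found at promoters, was at 177 and 246 RPKM in Mettl3KO, against 154 and 291 RPKM in Mettl3WT (log2 difference -0.02 ± 0.24, SE, n = 2 pairs). H2afy, which encodes macroH2A1, a variant of condensed chromatin, was at 30.9 and 18.7 RPKM in Mettl3KO, against 29.6 and 22.3 RPKM in Mettl3WT. H2afx was at 18.4 and 24.8 RPKM in Mettl3KO, against 17.1 and 38.9 RPKM in Mettl3WT, and its ratio was 1.08 in pair 1 (0.980 to 1.19) and 0.639 in pair 2 (0.591 to 0.690). The adjusted p in limma was 0.994 for H2afx and H2afy and 0.998 for H2afz.

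Set against each other, the classes did not differ in a way that held in both pairs. The median log2 ratio of the 9 replication histones was 0.09 for pair 1 and 0.13 for pair 2. For the 5 replacement histones it was 0.10 for pair 1 and -0.24 for pair 2. Over all 11757 genes the medians were -0.02 and -0.08. The replication genes spread from -0.38 to 0.94 in pair 1 and from -1.13 to 1.16 in pair 2, while the replacement genes spread from -0.10 to 0.23 in pair 1 and from -0.63 to 0.23 in pair 2.

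The 26 replication histones listed for the first pair alone were near the limit of detection in both genotypes. The second table lists only genes above 1 RPKM in both libraries, and these genes were at most at 1.16 RPKM in pair 1, so their levels in pair 2 were not analysed here. They summed to 7.85 RPKM in Mettl3KO and 9.15 RPKM in Mettl3WT, with medians of 0.271 RPKM in Mettl3KO and 0.288 RPKM in Mettl3WT, and 13 were higher and 13 lower in Mettl3KO. In the 25 genes with a single exon, whose reads could be recovered, these values came from 128 reads in Mettl3KO and 157 in Mettl3WT, and 20 of the genes had fewer than 10 reads in both. With 1 library a genotype there is no replicate check and no test.

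By type, all 6 listed replication H3 genes were in this group. They summed to 1.42 RPKM in Mettl3KO and 1.90 RPKM in Mettl3WT, and the H3.3 genes exceeded them 504-fold in Mettl3KO and 369-fold in Mettl3WT. Replication H3 mRNA that ends at its stem-loop is not measured in RNA selected by its poly(A) tail, so these factors are not those of the cells. The replication H3 sums also rest on few reads a gene, and the difference between the factors was not tested. The 8 H4 genes of this group summed to 3.16 RPKM in Mettl3KO and 3.37 RPKM in Mettl3WT, the 6 H2A genes to 1.73 RPKM in Mettl3KO and 2.59 RPKM in Mettl3WT, the 3 H2B genes to 0.945 RPKM in Mettl3KO and 0.718 RPKM in Mettl3WT, and the 3 H1 genes to 0.605 RPKM in Mettl3KO and 0.572 RPKM in Mettl3WT. No type other than H3 lacked a gene in both tables.

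The highest of these genes by mean level were Hist1h2ae, Hist1h4d, Hist1h4m, Hist1h3e, Hist1h4j, Hist1h2ac, Hist1h3d, Hist3h2bb-ps, Hist1h4c and Hist1h4b. Hist1h2ae was at 0.370 RPKM (7 reads) in Mettl3KO and 1.16 RPKM (23 reads) in Mettl3WT, a ratio of 0.319 (0.116 to 0.769). Hist1h3e was at 0.125 RPKM (2 reads) in Mettl3KO and 0.957 RPKM (16 reads) in Mettl3WT, and Hist1h4c at 0.0786 RPKM (1 read) in Mettl3KO and 0.600 RPKM (8 reads) in Mettl3WT. These 3 were lower in the Mettl3KO library. Hist1h4m lay the other way, at 1.09 RPKM (15 reads) in Mettl3KO and 0.0694 RPKM (1 read) in Mettl3WT, a ratio of 15.7 with an interval of 2.42 to 663. Of its windows 89.8% occur in other genes. Hist1h2ac, whose start faces that of the far more abundant Hist1h2bc, was at 0.606 RPKM in Mettl3KO and 0.289 RPKM in Mettl3WT. Hist3h2bb-ps, a transcribed pseudogene, was at 0.317 RPKM in Mettl3KO and 0.363 RPKM in Mettl3WT.

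Hist1h1e, Hist1h4k and Hist2h4 had no read in the Mettl3KO library and, like Hist1h1d and Hist1h3f, are named here after their values were seen. Hist1h1e and Hist1h4k had 8 reads each in Mettl3WT, a level 2.54-fold above a floor of 3 reads in the Mettl3KO library. Hist2h4 had 7 reads in Mettl3WT, 2.22-fold above that floor. These factors leave out the counting error of the Mettl3WT reads. With it, the upper limit of the ratio was 0.615 for Hist1h1e and Hist1h4k and 0.728 for Hist2h4. Of the 25 genes, 6 had a counting interval below 1 (these 3 with Hist1h2ae, Hist1h3e and Hist1h4c). Another 3 had an interval above 1 (Hist1h4m, Hist1h1d and Hist1h3f). The share of other genes at such low levels with an interval that leaves out 1 was not computed. These counts are therefore a description and not a result about histone genes. Hist1h1d had 12 reads in Mettl3KO and 2 in Mettl3WT, and Hist1h3f 8 in Mettl3KO and 1 in Mettl3WT. The intervals leave out the spread between mice.

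**Figure D4:**
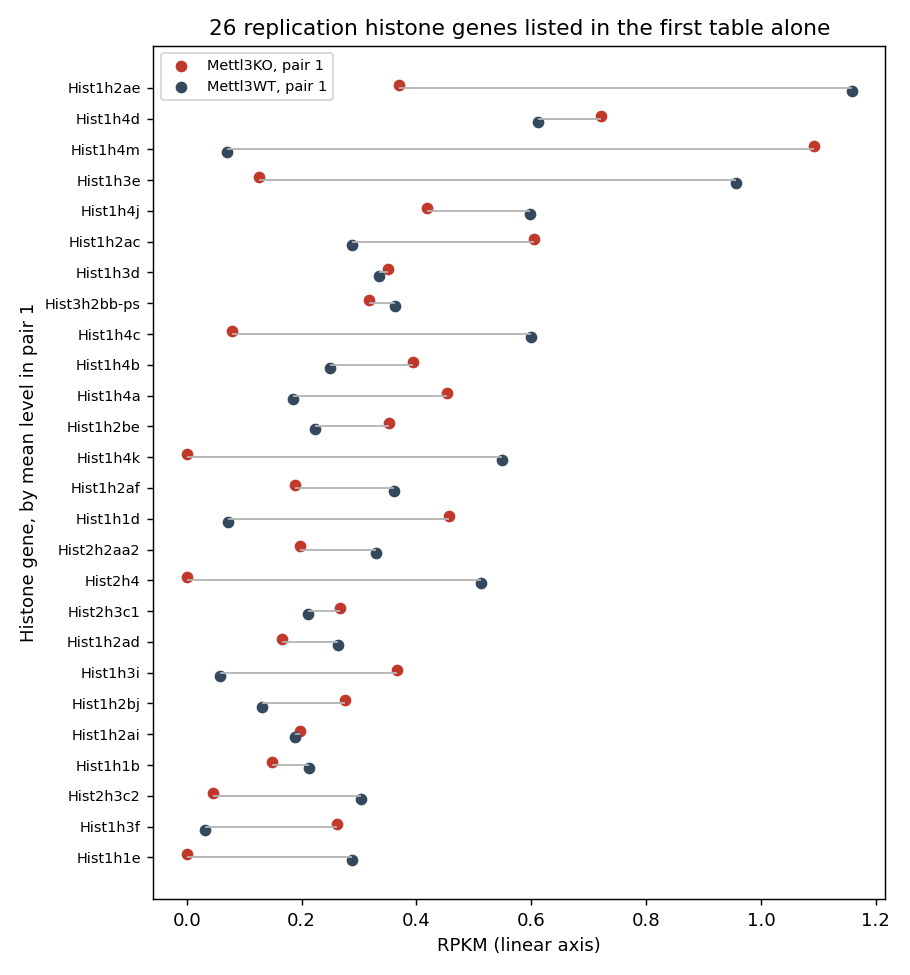
RPKM (linear axis) of the 26 replication histone genes listed for pair 1 alone, in order of their mean, with Mettl3KO in red above Mettl3WT in dark blue on each row and 1 library for each point. All values lie at or under 1.16 RPKM, and neither genotype is higher throughout.

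The promoters were searched because replication histone promoters are known for TATA and CCAAT boxes. Promoter sequences of RefSeq (GRCm38.p6, 250 bases before to 50 after the start, 300 in all) matched 34 of the 40 genes. TATAAA, searched on both strands, was in 16 of 30 replication (53.3%) and 1 of 4 replacement promoters, against 13.6% of 32851 promoters. CCAAT, on both strands, was in 24 of 30 replication (80.0%) and 3 of 4 replacement promoters, against 37.4% of all. The promoters of the 2 genes with the smallest p are shown with these letters in capitals on either strand, since they differ in them.
Hist1h4h: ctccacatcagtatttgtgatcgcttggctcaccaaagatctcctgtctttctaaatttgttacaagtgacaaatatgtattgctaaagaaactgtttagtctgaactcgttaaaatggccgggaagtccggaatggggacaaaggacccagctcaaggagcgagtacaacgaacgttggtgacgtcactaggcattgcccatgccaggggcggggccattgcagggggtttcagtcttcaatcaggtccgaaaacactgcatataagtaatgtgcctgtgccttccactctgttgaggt (chr13:23530794-23531093, plus strand)
Hist3h2ba: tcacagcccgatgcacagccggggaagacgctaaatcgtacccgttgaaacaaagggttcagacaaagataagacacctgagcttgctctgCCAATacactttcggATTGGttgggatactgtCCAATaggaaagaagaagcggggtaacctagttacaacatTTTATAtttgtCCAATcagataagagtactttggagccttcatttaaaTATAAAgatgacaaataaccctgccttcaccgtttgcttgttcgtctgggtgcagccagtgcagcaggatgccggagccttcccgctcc (chr11:58948661-58948960, plus strand)
The Hist1h4h promoter held neither motif in this window, and that of Hist3h2ba held TATAAA 2 times and CCAAT 4 times. A match to such letters is a description and not a site.

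Among histone genes outside these clusters none passed the test. Of 6 tested variants, H2afj (a variant of H2A) was at 26.5 and 83.9 RPKM in Mettl3KO, against 24.4 and 62.8 RPKM in Mettl3WT, and H1f0, the linker histone of cells at rest, at 33.9 and 21.1 RPKM in Mettl3KO, against 28.3 and 33.6 RPKM in Mettl3WT. H1f0 had the signs of Hist1h1c in both pairs, higher in pair 1 and lower in pair 2. H2afv was at 14.5 and 18.3 RPKM in Mettl3KO, against 14.04 and 20.4 RPKM in Mettl3WT, and Cenpa, the histone H3 of centromeres, at 6.29 and 11.9 RPKM in Mettl3KO, against 6.15 and 16.9 RPKM in Mettl3WT.

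The genes that make, process and carry histones gave 0 calls in either direction. Of 24 genes of histone pre-mRNA processing, 4 were higher and 12 lower in Mettl3KO in both pairs, where 19.1% and 30.8% of all genes were. Slbp was at 21.9 and 23.1 RPKM in Mettl3KO, against 20.2 and 23.8 RPKM in Mettl3WT, and Lsm10, a subunit of the U7 particle that cuts histone pre-mRNA, at 23.3 and 29.4 RPKM in Mettl3KO, against 19.5 and 25.5 RPKM in Mettl3WT. Of 24 histone chaperones, 2 were higher and 11 lower in both pairs, beside the same shares of all genes. Of 35 DNA replication and cell cycle genes, 24 were higher in Mettl3KO in pair 1 (46.7% of all genes were) and 7 in pair 2 (41.7%), with median log2 ratios of 0.15 and -0.33. Pcna, the sliding clamp of DNA polymerase, was at 56.2 and 78.5 RPKM in Mettl3KO, against 61.4 and 88.7 RPKM in Mettl3WT.

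RNAs that lack a long poly(A) tail were higher in the Mettl3KO library of pair 2. All 6 of these RNAs that were tested were higher there, with a median log2 ratio of 0.62. The amounts differed widely. The log2 ratio was small in Rn7sk (0.12), Snora73a (0.20) and Snora73b (0.25), and larger in mt-Rnr2 (1.00), mt-Rnr1 (1.42) and Rmrp (3.86). In pair 1, 3 of the 6 RNAs were higher, with a median of -0.01. The histone genes of pair 2 went both ways. Hist1h2bc, Hist1h4h and Hist3h2ba were 1.5-fold higher in Mettl3KO, and Hist1h1c, Hist3h2a and H2afx were 1.5-fold lower. A stem-loop was found in each of these genes but Hist1h2bc. The plain ratio of Hist1h4h was 2.92 in pair 1 and 2.60 in pair 2, with counting intervals that overlap. On the scale of (RPKM + 1) its log2 ratio was 0.94 in pair 1 and 1.16 in pair 2. Rmrp, the RNA of RNase MRP, was at 1.07 and 57.3 RPKM in Mettl3KO, against 0.409 and 3.01 RPKM in Mettl3WT. The mitochondrial rRNA mt-Rnr1 was at 1160 and 4949 RPKM in Mettl3KO, against 1219 and 1853 RPKM in Mettl3WT. None of them passed the test, and their part in the histone values was not tested.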

How the data were processed

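RNA of LPS-matured BMDC was selected by poly(A) tail (Dynabeads mRNA purification), made into NEBNext Ultra RNA libraries and sequenced (HiSeq2000), with 1 Mettl3KO and 1 Mettl3WT library for each of 2 littermate pairs. Per the labels and methods, the authors used bcl2fastq, TopHat2 2.0.14 against mm10 and Cuffnorm, and deposited 1 table of RPKM a pair. For the annotation, strand and reads with several positions, the settings were not stated. The first table lists 23690 genes and the second 11835, each above 1 RPKM in both libraries, and 11822 genes are in both, joined by symbol and position. Further columns with the authors' fold changes and p-values were not used.

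The 11757 genes of both tables that averaged 1 RPKM or more were tested on log2(RPKM + 1) in limma 3.58.1 (R 4.3.3) with an intensity trend and the pair as a block, with Benjamini-Hochberg adjustment over all genes and a threshold of 0.05. The scale understates the change of low genes. The pairing comes from the methods, and samples of a pair deviated together (r = 0.697 across genes). The fit left 1 residual degree of freedom beside 8.68 prior ones, and the script was tested on simulated data. The p-values and SE therefore rest mostly on a variance shared over all genes, and only in part on the spread between these few mice. Where reads were counted whole, RPKM values were multiples of 1 read: in 97.9% to 100% of low values the result was whole to within 0.1 reads, which gave library sizes and, for genes with a single exon, read counts. Exact 95% intervals of a ratio and floors of 3 reads cover counting error only. No count test was run, because genes with several exons gave no reads.

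The histone genes and all gene lists were chosen with earlier results of these data known. Named genes were the 5 replacement histones, the replication histones of both tables, the 10 highest by mean level and the 3 highest and 3 lowest ratios in pair 1, and of each other list genes among the 4 highest by mean level. Alternatives were a pseudocount of 0.1, no filter, a mean of at least 5 RPKM, centring of each table, no block, no trend, and leaving out each library or pair. Figures were drawn with matplotlib 3.10.9.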

Additional observations from a re-analysis of the deposited data

How the results depend on the processing

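No histone gene passed the test under any alternative that kept all 4 libraries, and Hist1h4h kept its direction under each alternative that tested it, with adjusted p from 0.0235 to 1. The filter at a mean of 5 RPKM left out 4 of the 14 histone genes, Hist1h4h, Hist1h2bg, Hist2h2be and Hist3h2ba. The number of all genes called was 5, and it was 1 with a pseudocount of 0.1, 1 after centring each table and 0 with no replicate block (the pairing dropped), and 1 to 118 with a library left out. Fits with a library left out also drop the pair block and compare across the 2 separately normalised tables, so more than 1 choice changes at once and their values hold the level difference between tables. The 118 came from such a fit without the Mettl3KO library of pair 1, where Hist1h4h passed, and 0 to 1 histone genes were called with a library left out. A ratio of 1.5 higher in both pairs was reached by 1 histone gene, by 2 with a pseudocount of 0.1 and by 0 at a mean of at least 5 RPKM. In pair 1 it was reached by 1, by 2 with a pseudocount of 0.1, by 2 with no filter and by 0 at 5 RPKM, and 1.5-fold lower were 0, and 4 with no filter. The median of the replication histones, 0.06, was -0.17 at 5 RPKM, which keeps fewer genes, 0.10 after centring, and 0.091 to 0.13 with a pair left out. That of the replacement histones ran from -0.24 to 0.10 with a pair left out. Centring turned H2afz to 0.028 and Hist1h4i to 0.022, and 12 of the 14 genes kept direction and call under the alternatives on 4 libraries that tested them. Within pairs, 6 genes had the same direction in both (Hist1h2ao, Hist1h2bc, Hist1h4h, Hist2h2be, Hist3h2a and Hist3h2ba). With a library or pair left out, only Hist3h2a kept direction and call (-0.77 to -0.08), while Hist1h4h ran from 0.32 to 1.78. The others reversed in at least 1 case, and Hist1h2ao, Hist1h2bc, Hist2h2be and Hist3h2ba only in fits across the tables. The ranges were H2afx (-0.83 to 0.31), H2afy (-0.44 to 0.26), H2afz (-0.48 to 0.44), H3f3a (-0.33 to 0.47), H3f3b (-0.13 to 0.31), Hist1h1c (-1.13 to 0.19), Hist1h2ao (-0.97 to 0.63), Hist1h2bc (-0.17 to 1.38), Hist1h2bg (-0.38 to 0.50), Hist1h4i (-0.54 to 0.49), Hist2h2be (-0.084 to 0.21) and Hist3h2ba (-0.026 to 1.37). A fit on 3 libraries assumes that the lone sample varies like the others, and the cause of these moves was not tested. Depth limits the 26 genes of pair 1 alone, most with under 10 reads.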
